A study of Mus musculus with 7 samples.

Results

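The genes of fatty acid oxidation described here were 34 named genes for the import, activation and beta-oxidation of fatty acids and for its control by PPAR receptors, chosen by name from 49671 genes in a count table of mouse femur. All 34 were found and all 34 were among the 17144 genes that passed the filter on low counts. Libraries came from wild type mice 3 days after a controlled cortical impact, a piston injury to the exposed brain that models traumatic brain injury (TBI, 4 libraries), and from control mice (3 libraries) that the series text describes as uninjured. The labels give no age, sex or anaesthesia for either group and do not say whether each library is a mouse of its own; p-values reflect the spread of these 7 samples and no more. Each femur was crushed whole, so a library holds RNA of bone, marrow and any muscle or fat left attached, and in such bulk RNA fewer cells of a type and less RNA per cell cannot be told apart. The data were read for whether these genes differed between TBI and control femurs and how they followed the amount of muscle RNA in each library.

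Long-chain fatty acids are bound in the cell by FABP proteins, activated to acyl-CoA by ACSL enzymes and carried into mitochondria as acylcarnitines by the carnitine shuttle, in which the CPT1 enzymes are the rate-limiting step. In the matrix, each round of beta-oxidation runs through acyl-CoA dehydrogenases, enoyl-CoA hydratases, hydroxyacyl-CoA dehydrogenases and thiolases, and electrons from the dehydrogenases pass through electron transfer flavoprotein (ETF) to the respiratory chain. PPAR nuclear receptors and their PGC-1 coactivators control many of these genes, which are highly expressed in oxidative muscle, heart, liver and brown fat. In bone, osteoblasts and marrow cells also use fatty acids.

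Total counts were 15461528 to 21783534 per library, and 1 count equalled 0.0459 to 0.0647 CPM, the count scaled to a common depth. Values per library are given in the order of the replicate numbers, controls 1 to 3 and TBI 1 to 4. The osteoblast list (10 genes, Col1a1 and Bglap among them) took 0.944% to 2.89% of counts, and the erythroid list took 2.07% to 5.62%, so bone and marrow RNA was present in every library. Muscle RNA differed much between libraries of the same group. A list of 35 sarcomere and muscle fibre genes, which holds none of the 34 members, held 3.11%, 5.73% and 9.12% of the counts of the 3 controls, against 3.70%, 5.65%, 11.7% and 14.5% for the 4 TBI libraries. Its mean ± SD was 5.99% ± 3.01 for the 3 controls and 8.89% ± 5.06 for the 4 TBI libraries, a difference smaller than the spread within the groups (exact permutation test, two-sided p = 0.4; the smallest p this design allows is 0.0571). Markers of fat cells moved with it: 12 adipocyte genes held 0.0603%, 0.0753% and 0.0918% of control counts and 0.0646%, 0.0819%, 0.156% and 0.123% of TBI counts. TBI 3 and TBI 4 thus stood apart by the highest shares of both muscle and fat markers, and counts and medians over the members are given below with and without them, as are the estimates of several single members. The defining brown fat gene Ucp1 had 0 to 6 counts per library, and the liver genes Ttr (0 counts in all 7 libraries) and Alb (0 to 15 counts) were at or near 0. Other genes of these lists were detected, and 3 of 6 in each list passed the low-count filter. The brown adipocyte list took 0.00372% to 0.00936% of counts and the hepatocyte list 0.00197% to 0.00667%. The 34 members together took 0.314% to 0.378% of counts in any library.

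PPARs bind with their partner RXR to a direct repeat of the hexamer AGGTCA spaced by a single base. Promoters of the members, from RefSeq (assembly GRCm38.p6, 250 bases before to 50 after the gene start), were searched for these letters on both strands, and 29 of the 34 members had a promoter in that table. The full repeat AGGTCANAGGTCA was in 0 of the 29 and in 13 of 32851 promoters (0.0396%), and the longer AAGGTCA, a motif of estrogen-related receptors that contains the hexamer, was in 1 member (Acadm) and in 4.72% of all promoters. The single hexamer was in 5 members (17.2%), near its share of all promoters (16.3%). The stretches around it are printed because the 5 genes differ in the results that follow: Acadvl, Acadm, Echs1 and Ucp3 rose with muscle share, and Cpt1a did not pass that test. Each is written 5′ to 3′ in the direction of transcription, and capitals mark AGGTCA or its reverse complement TGACCT.
Acadm: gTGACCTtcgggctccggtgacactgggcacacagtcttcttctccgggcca
Acadvl: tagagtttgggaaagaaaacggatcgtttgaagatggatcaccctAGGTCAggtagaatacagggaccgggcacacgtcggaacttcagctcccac
Cpt1a: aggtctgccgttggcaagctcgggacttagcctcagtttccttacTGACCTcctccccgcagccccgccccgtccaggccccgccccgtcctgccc
Echs1: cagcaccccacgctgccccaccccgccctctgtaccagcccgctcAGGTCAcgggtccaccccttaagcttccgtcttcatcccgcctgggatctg
Ucp3, upstream site: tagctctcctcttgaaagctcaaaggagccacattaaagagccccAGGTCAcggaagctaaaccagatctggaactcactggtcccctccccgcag
Ucp3, site nearer the start: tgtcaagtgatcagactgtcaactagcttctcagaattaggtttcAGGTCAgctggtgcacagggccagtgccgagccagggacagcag
These lie at chr3:153944842-153944893 (minus strand) for Acadm, chr11:70015465-70015560 (minus strand) for Acadvl, chr19:3323162-3323257 (plus strand) for Cpt1a and chr7:140116454-140116549 (minus strand) for Echs1, and at chr7:100472797-100472892 and chr7:100472902-100472990 (plus strand) for Ucp3. The hexamer begins 249 bases before the RefSeq start in Acadm, 87 in Acadvl, 94 in Cpt1a and 83 in Echs1, and 149 and 44 in Ucp3. A match describes the letters only, and no binding was measured.

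TBI against control was tested first, over all 17144 genes, with edgeR's quasi-likelihood test and Benjamini-Hochberg adjustment at 0.05. None of the 34 members passed, beside 0.0% of all genes tested, and 0 members had an unadjusted p under 0.05 (7.36% of all genes did); DESeq2, which called 103 genes, also called 0 members. The estimates nevertheless lay mostly on 1 side: 33 of 34 were above 0 (54.5% of all genes), with a median log2 difference of 0.34 (0.03 over all genes), from −0.30 for Ucp2 to 0.93 for Ucp3. The libraries differed in this. TBI 3 lay above every control in 30 members (29.9% of all genes did) and TBI 4 in 27 (32.2% of all genes), while TBI 1 did so in 5 (29.0% of all genes) and TBI 2 in 3 (25.1% of all genes). TBI 1 and TBI 2 thus lay above every control in a smaller share of the members than of all genes. Without TBI 3 and TBI 4, 5 of 34 estimates were above 0 (Cpt1a, Cpt2, Acsl5, Acaa1a and Ppard) and the median was −0.15. The TBI estimate then was −0.71 for Fabp3, −0.57 for Ppargc1a, −0.23 for Ppara and −0.04 for Ucp3, against 0.33, 0.56, 0.57 and 0.93 in all 7 libraries. With single libraries left out, the median was 0.15 without TBI 4 alone and 0.22 without TBI 3 or control 1 alone. In no member did every TBI library lie above every control (2.66% of all genes), and in 1, Ucp2, every TBI library lay below (5.38% of all genes).

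**Figure D1:**
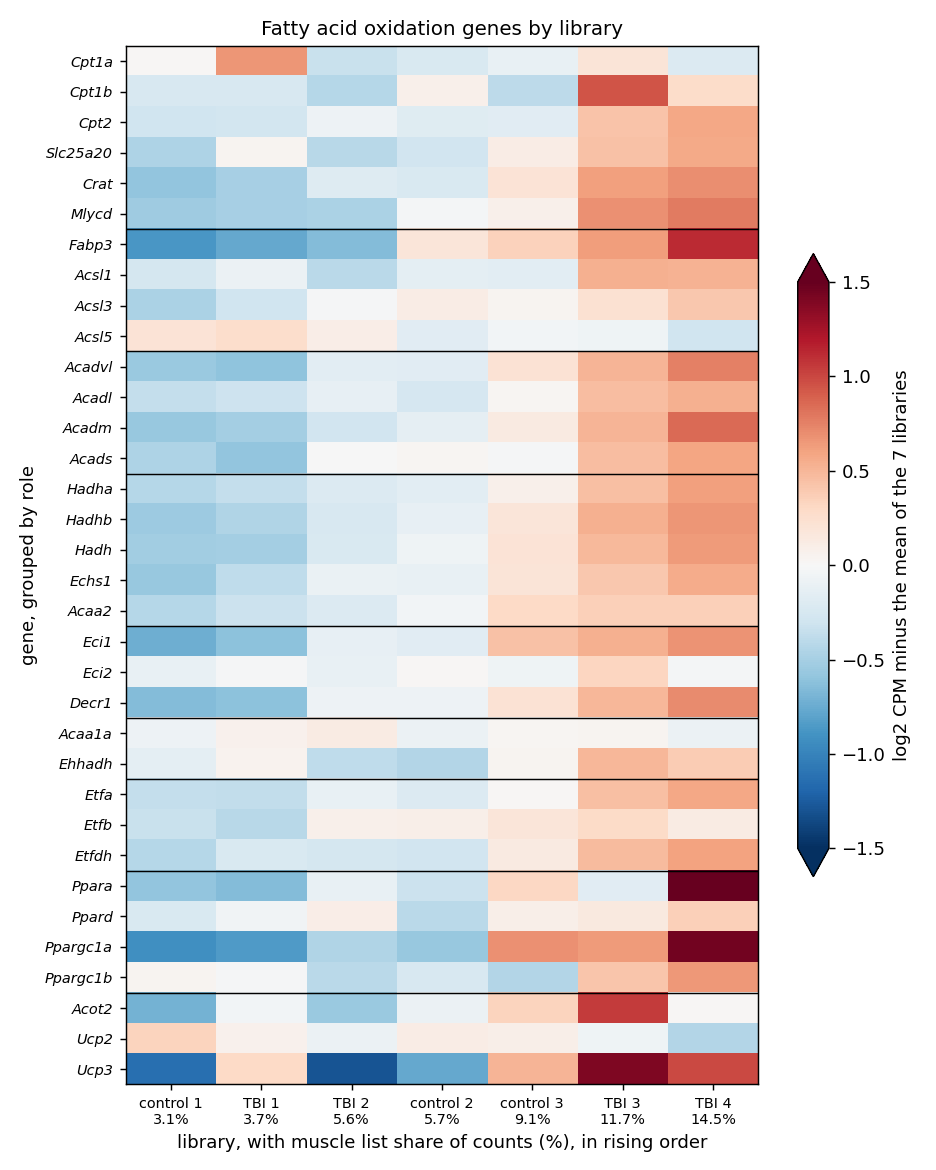
Level of each of the 34 members (rows, by role) in each library (columns, in order of rising muscle share), as log2 CPM minus the gene's mean over the 7 libraries; red is above and blue below that mean. TBI 4, on the right, was the highest library for 23 members, and control 1, on the left, the lowest for 18.

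**Figure D2:**
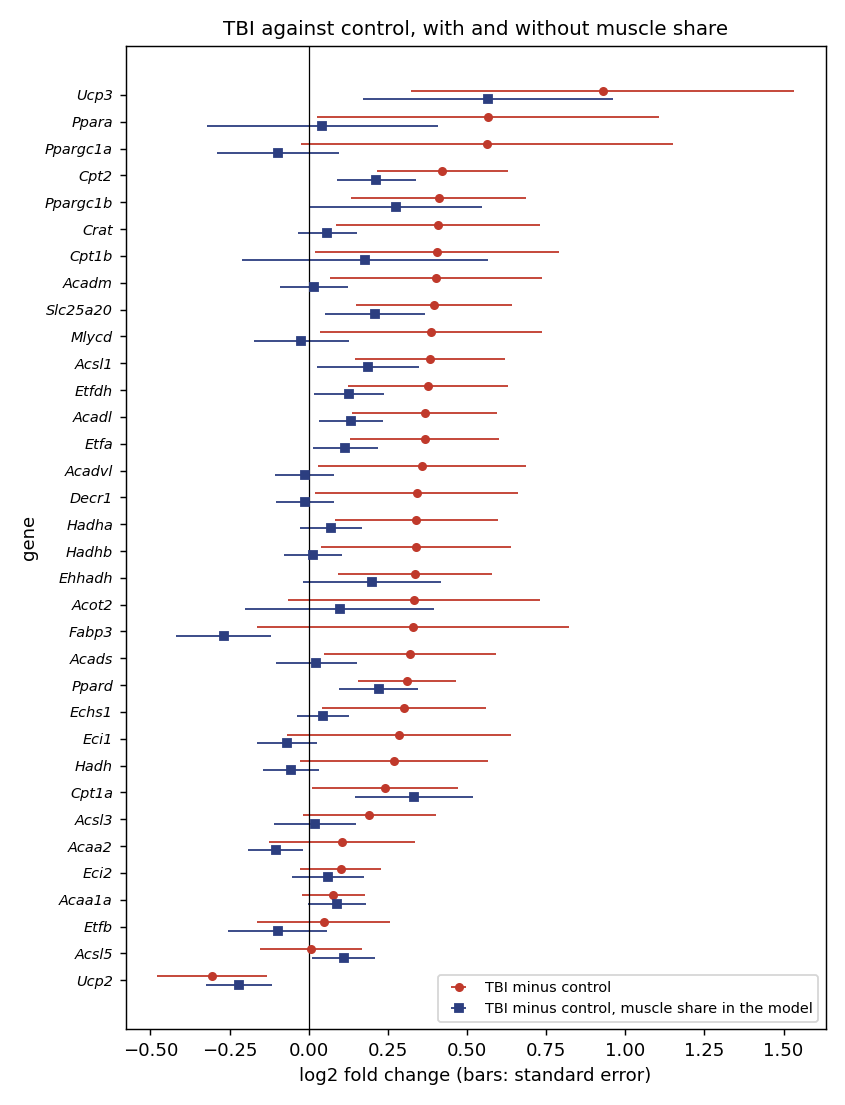
Log2 difference of TBI from control for each member, with its standard error, from the comparison of the groups as they are (red circles) and from the comparison at equal muscle share (blue squares). The red circles lie above 0 for 33 of 34 members and the blue squares for 24 of 34, and 0 of either set passed the test.

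The relation to muscle was tested as a slope: the change in log2 CPM for each doubling of the muscle share, with TBI and control kept as a term in the model. A slope of 1 means a level in CPM proportional to muscle share, and 0 means a level in CPM with no relation to it. The share is a percent of unscaled counts, while the scaling factors of CPM were 1.07 in control 1 and 0.872 in TBI 4. For a gene's share of counts these marks are therefore approximate. Of the 34 members, 23 rose with muscle share by edgeR's quasi-likelihood test (14.0% of all genes did) and 1, Acsl5, fell (9.74% of all genes), while 27 had an unadjusted p under 0.05 (37.2% of all genes); the median slope was 0.43, against −0.04 over all genes. Most slopes lay between 0 and 1, below the median of 1.05 for the muscle fibre list itself, 33 of whose 35 genes rose. The genes of that list define the muscle share, so their own rise with it is in part built in. In 8 members (Fabp3, Mlycd, Acadm, Hadha, Hadhb, Hadh, Acaa2 and Decr1) the 7 libraries stood in the exact order of their muscle shares, as in 2.28% of all genes. Of the 24 called members, 17 passed again whichever of the 7 libraries was left out. The like share over all 4075 called genes was not determined. With 1 library left out, 1658 to 3948 genes were called. The adipocyte share rose in the same libraries. Once it was added to the model, 1 member slope was called, that of Ppargc1a (1.41 ± 0.29, adjusted p = 0.0293 by edgeR's quasi-likelihood test). That 1 of 34 (2.94%) is near the 2.13% of all genes that rose in the same model. The median slope in that model was 0.34 over the members and 0.02 over all genes. Which of the shares the members follow cannot be told apart in 7 libraries. Without TBI 3 and TBI 4, 11 members (Crat, Fabp3, Acadvl, Acadm, Hadhb, Hadh, Echs1, Acaa2, Eci1, Decr1 and Ppargc1a; 32.4%) rose with muscle share, as did 5.74% of all genes. Among the slopes no longer called over those 5 libraries, that of Acsl1 was 0.01, that of Cpt2 0.13, that of Slc25a20 0.23 and that of Mlycd 0.37. The uncalled slopes of Cpt1b, Ppargc1b and Ehhadh were then −0.09, −0.34 and 0.01.

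**Figure D3:**
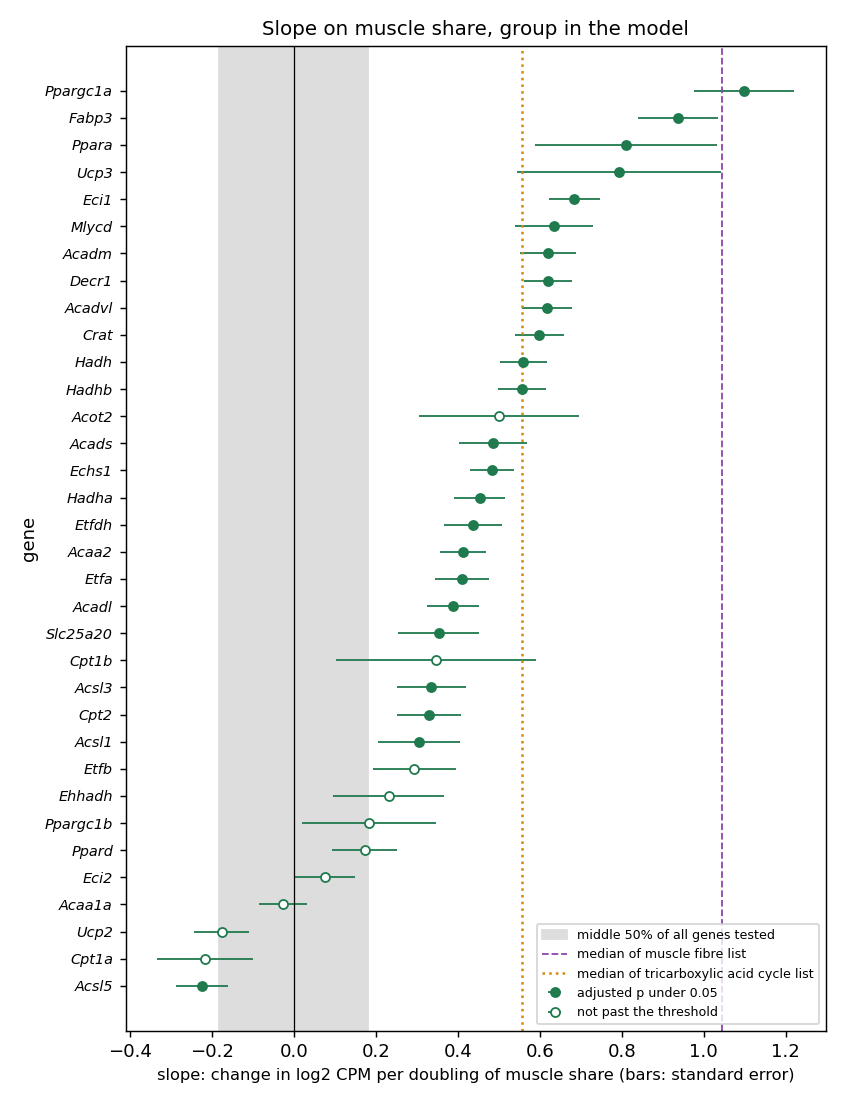
Slope of each member on muscle share, in log2 CPM per doubling of the share, with its standard error; filled points have an adjusted p under 0.05. The grey band holds the middle 50% of all genes, and lines mark the medians of the muscle fibre list (1.05) and of the tricarboxylic acid cycle list (0.56).

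The other 7 called slopes (Cpt2, Slc25a20, Acsl1, Acsl3, Acsl5, Ppara and Ucp3) kept their sign but missed the threshold without certain single libraries. Without TBI 1, 5 of them were no longer called by edgeR: Cpt2 (0.27, adjusted p = 0.122), Acsl1 (0.37, adjusted p = 0.123), Acsl3 (0.32, adjusted p = 0.123), Acsl5 (−0.21, adjusted p = 0.162) and Ppara (0.79, adjusted p = 0.141). Without TBI 4 the edgeR call was lost for Cpt2 (0.28, adjusted p = 0.0577), Slc25a20 (0.32, adjusted p = 0.084), Acsl1 (0.27, adjusted p = 0.135), Acsl3 (0.33, adjusted p = 0.0534), Acsl5 (−0.18, adjusted p = 0.113) and Ppara (0.40, adjusted p = 0.231). Without control 1 the call was lost for Slc25a20, Acsl1, Acsl3, Acsl5 and Ucp3, without control 3 for Slc25a20, Ppara and Ucp3, without control 2 for Acsl1 and Ucp3, without TBI 3 for Acsl1 and Ucp3, and without TBI 2 for Ppara, with slopes of 0.26 to 0.85 (−0.21 for Acsl5) and edgeR adjusted p of 0.0521 to 0.143. Of the uncalled members, Cpt1a (−0.27, adjusted p = 0.0451) passed in edgeR without TBI 2, Ucp2 (−0.22, adjusted p = 0.0294) without TBI 3, Etfb without TBI 2 (0.34, adjusted p = 0.0492) or TBI 4 (0.37, adjusted p = 0.0489) and Acot2 (0.72, adjusted p = 0.0156) without TBI 4.

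Among the genes for import and activation, Fabp3 had the steepest slope on muscle share. Fabp3 (ENSMUSG00000028773, GRCm38 chromosome 4, 130308595 to 130315463, plus strand) encodes the fatty acid-binding protein of heart and skeletal muscle. Its levels were 56.8, 118 and 132 CPM in the 3 controls and 61.1, 66.3, 161 and 226 CPM in the 4 TBI libraries. The high libraries were controls 2 and 3 and TBI 3 and 4, the groups overlapped, and the order was exactly that of muscle share. Its slope was 0.94 ± 0.10 (adjusted p = 6.24e-05, edgeR's quasi-likelihood test), close to proportional, while the TBI estimate of 0.33 ± 0.49 (SE) did not pass. Acsl1 (ENSMUSG00000018796, GRCm38 chromosome 8, 46471037 to 46536051, plus strand), the main long-chain acyl-CoA synthetase of muscle, fat and liver, had 216, 235 and 232 CPM in the 3 controls and 244, 196, 375 and 373 CPM in the 4 TBI libraries. It rose less steeply with muscle share, by 0.31 ± 0.10 (edgeR adjusted p = 0.0481). Of its relatives, Acsl3, a synthetase linked to lipid droplets, had a slope of 0.34 ± 0.08 (adjusted p = 0.0166), and Acsl5, the sole member whose negative slope was called, had one of −0.22 ± 0.06 (adjusted p = 0.0272, both by edgeR).

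Within the carnitine shuttle, neither form of its first enzyme passed the slope test. Cpt1a (ENSMUSG00000024900, GRCm38 chromosome 19, 3322334 to 3385733, plus strand) encodes the CPT1 form of liver and most other tissues. Its levels were 72.0, 60.5 and 65.5 CPM in the 3 controls and 112, 56.6, 81.5 and 61.8 CPM in the 4 TBI libraries. TBI 1 was the highest library although its muscle share was the second lowest, TBI 2 lay below and TBI 3 above every control, and TBI 4 lay within their range. The slope was −0.22 ± 0.12 (adjusted p = 0.207) and the TBI estimate 0.24 ± 0.23, neither called by edgeR. Without TBI 1 that TBI estimate was 0.0083. At equal muscle share the TBI estimate was 0.33 ± 0.19, and −0.03 without TBI 1. Cpt1b (ENSMUSG00000078937, GRCm38 chromosome 15, 89416405 to 89425863, minus strand), the form of muscle and heart, was far lower, at 1.22, 1.51 and 1.09 CPM in the 3 controls and 1.22, 1.06, 2.76 and 1.74 CPM in the 4 TBI libraries. These levels rest on 21 to 51 counts per library, and TBI 3 and TBI 4 were the highest. Its slope of 0.35 ± 0.24 was not called (edgeR adjusted p = 0.328). In each library Cpt1b had 1.08 to 3.39 counts for every 100 of Cpt1a. Of the 3372 exon bases of Cpt1b, 2744 (81.4%) are shared on the same strand with the annotated gene Gm44502, and since the sources used here do not give how reads on shared bases were counted, the Cpt1b values are uncertain. On the opposite strand, Acadvl shares 42.9% of its exon bases with Dvl2 and Fabp3 shares 19.6%, which matters only if strand was not used in counting.

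The remaining 4 genes of shuttle and carnitine handling rose with muscle share. Cpt2 (ENSMUSG00000028607, GRCm38 chromosome 4, 107903981 to 107923610, minus strand), which turns acylcarnitine back to acyl-CoA inside the mitochondrion, had 29.2, 31.6 and 32.0 CPM in the 3 controls and 29.6, 34.1, 48.3 and 53.9 CPM in the 4 TBI libraries. TBI 1 lay within the range of the controls and the other TBI libraries above it. Cpt2 had the smallest unadjusted p of the members for TBI, 0.0748, at 0.42 ± 0.21, and a slope of 0.33 ± 0.08 (edgeR adjusted p = 0.0127). Crat (ENSMUSG00000026853, GRCm38 chromosome 2, 30400471 to 30415813, minus strand), carnitine acetyltransferase, which buffers acetyl-CoA, had 148, 191 and 258 CPM in the 3 controls and 158, 196, 341 and 361 CPM in the 4 TBI libraries. Its slope was 0.60 ± 0.06 (edgeR adjusted p = 5.07e-05). Mlycd (ENSMUSG00000074064, GRCm38 chromosome 8, 119394878 to 119411102, plus strand), which removes malonyl-CoA, the inhibitor of CPT1, had 22.4, 31.9 and 34.4 CPM in the 3 controls and 23.1, 23.3, 52.2 and 56.0 CPM in the 4 TBI libraries. Crat ran in the order of muscle share but for the nearly equal control 2 and TBI 2, and Mlycd in exactly that order, with a slope of 0.63 ± 0.10 (edgeR adjusted p = 8.54e-04). Slc25a20, the carnitine-acylcarnitine carrier, rose by 0.35 ± 0.10 (edgeR adjusted p = 0.0262).

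All 4 acyl-CoA dehydrogenases, which open each round of beta-oxidation and differ in the chain length they take, rose with muscle share. Acadvl (ENSMUSG00000018574, GRCm38 chromosome 11, 70010183 to 70015411, minus strand), for very long chains, had 97.8, 128 and 167 CPM in the 3 controls and 94.6, 129, 205 and 242 CPM in the 4 TBI libraries. Its levels ran in the order of muscle share, except that TBI 1 lay just below control 1 and TBI 2 just above control 2, and its slope was 0.62 ± 0.06 (edgeR adjusted p = 3.74e-05). Acadl (ENSMUSG00000026003, GRCm38 chromosome 1, 66830839 to 66863277, minus strand), for long chains, had 116, 125 and 152 CPM in the 3 controls and 119, 137, 205 and 215 CPM in the 4 TBI libraries, with a slope of 0.39 ± 0.06 (edgeR adjusted p = 0.00161). Acadm (ENSMUSG00000062908, GRCm38 chromosome 3, 153922357 to 153944632, minus strand), for medium chains, had 87.1, 118 and 142 CPM in the 3 controls and 90.3, 106, 184 and 232 CPM in the 4 TBI libraries, with a slope of 0.62 ± 0.07 (edgeR adjusted p = 9.45e-05). In each of the 3 genes the groups overlapped, with TBI 3 and TBI 4 the highest. Acads, for short chains, had a slope of 0.49 ± 0.08 (edgeR adjusted p = 0.00209). The TBI estimates of these 4 genes ran from 0.32 to 0.40, and at equal muscle share from −0.01 to 0.13.

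All 5 enzymes of the later steps rose with muscle share. Hadha (ENSMUSG00000025745, GRCm38 chromosome 5, 30118304 to 30155162, minus strand) and Hadhb (ENSMUSG00000059447, GRCm38 chromosome 5, 30155248 to 30184593, plus strand) encode the subunits of the mitochondrial trifunctional protein, which carries out the last 3 steps on long chains. Hadha had 157, 189.9 and 223 CPM in the 3 controls and 166, 183, 289 and 324 CPM in the 4 TBI libraries. Hadhb had 97.2, 130.2 and 161 CPM in the 3 controls and 104, 121, 206 and 224 CPM in the 4 TBI libraries. Their slopes were 0.45 ± 0.06 (adjusted p = 4.90e-04) and 0.56 ± 0.06 (adjusted p = 7.21e-05, both by edgeR), and both genes ran in the exact order of muscle share over the 7 libraries. Echs1 (ENSMUSG00000025465, GRCm38 chromosome 7, 140105710 to 140116476, minus strand), the short-chain enoyl-CoA hydratase, had 37.4, 51.5 and 63.3 CPM in the 3 controls and 42.7, 51.7, 73.8 and 82.0 CPM in the 4 TBI libraries. Hadh (ENSMUSG00000027984, GRCm38 chromosome 3, 131233419 to 131272101, minus strand), the short-chain hydroxyacyl-CoA dehydrogenase, had 50.9, 70.0 and 83.9 CPM in the 3 controls and 51.3, 62.1, 102 and 114 CPM in the 4 TBI libraries. Acaa2 (ENSMUSG00000036880, GRCm38 chromosome 18, 74779197 to 74806208, plus strand), the mitochondrial thiolase, had 61.8, 81.0 and 102 CPM in the 3 controls and 66.4, 72.1, 106 and 106 CPM in the 4 TBI libraries. Each of these 3 was highest in TBI 4 or TBI 3 and overlapped between the groups, with slopes of 0.48 ± 0.05, 0.56 ± 0.06 and 0.41 ± 0.06 (edgeR adjusted p = 1.01e-04, 5.92e-05 and 4.61e-04).

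Auxiliary enzymes let unsaturated fatty acids enter the cycle. Eci1 (ENSMUSG00000024132, GRCm38 chromosome 17, 24426641 to 24439348, plus strand), an enoyl-CoA isomerase, had 21.8, 32.3 and 49.2 CPM in the 3 controls and 23.8, 33.3, 52.8 and 58.0 CPM in the 4 TBI libraries. Decr1 (ENSMUSG00000028223, GRCm38 chromosome 4, 15917240 to 15945507, minus strand), the dienoyl-CoA reductase, had 31.8, 47.0 and 58.0 CPM in the 3 controls and 32.5, 47.0, 70.3 and 81.2 CPM in the 4 TBI libraries. Both were highest in TBI 3 and TBI 4, and their slopes were 0.68 ± 0.06 (adjusted p = 2.43e-05) and 0.62 ± 0.06 (adjusted p = 3.40e-05, both by edgeR). Eci2, an isomerase also found in peroxisomes, had a slope of 0.08 ± 0.07 that was not called (edgeR adjusted p = 0.48). The peroxisomal members were not called either. Ehhadh (ENSMUSG00000022853, GRCm38 chromosome 16, 21761287 to 21787807, minus strand), the peroxisomal bifunctional enzyme, had 5.77, 4.72 and 6.56 CPM in the 3 controls and 6.60, 4.89, 8.99 and 8.32 CPM in the 4 TBI libraries, with a slope of 0.23 ± 0.13 (edgeR adjusted p = 0.239). Acaa1a, the peroxisomal thiolase, which has the near-identical copy Acaa1b and is therefore uncertain, had a slope of −0.03 ± 0.06 (edgeR adjusted p = 0.787).

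In electron transfer from the dehydrogenases, 2 of 3 genes rose with muscle share. Etfa (ENSMUSG00000032314, GRCm38 chromosome 9, 55454508 to 55512243, minus strand), a subunit of ETF, had 75.8, 84.1 and 98.3 CPM in the 3 controls and 75.3, 89.9, 133 and 145 CPM in the 4 TBI libraries, and its slope was 0.41 ± 0.06 (edgeR adjusted p = 0.00124). Etfdh (ENSMUSG00000027809, GRCm38 chromosome 3, 79603788 to 79629500, minus strand), the dehydrogenase that passes the electrons to ubiquinone, had 50.2, 55.5 and 74.4 CPM in the 3 controls and 57.6, 56.5, 94.5 and 103 CPM in the 4 TBI libraries, and its slope was 0.44 ± 0.07 (edgeR adjusted p = 0.00129). TBI 3 and TBI 4 were the highest libraries in both. Etfb, the partner subunit of Etfa, had a slope of 0.29 ± 0.10 (edgeR adjusted p = 0.0592). In the annotation, 678 of its 1164 exon bases (58.2%) are shared on the same strand with other genes, so its counts are uncertain.

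The coactivator Ppargc1a had the steepest slope of the members. Ppargc1a (ENSMUSG00000029167, GRCm38 chromosome 5, 51454250 to 51567726, minus strand) encodes PGC-1 alpha, an inducer of mitochondrial genes in oxidative tissue. Its levels were 5.36, 6.86 and 16.4 CPM in the 3 controls and 5.64, 7.44, 15.8 and 27.6 CPM in the 4 TBI libraries. Both groups ran in the order of muscle share, and the slope of 1.10 ± 0.12 (edgeR adjusted p = 9.95e-05) was about that of the muscle fibre list. Ppargc1b (ENSMUSG00000033871, GRCm38 chromosome 18, 61298136 to 61400431, minus strand), its relative PGC-1 beta, had 5.45, 4.47 and 3.91 CPM in the 3 controls and 5.25, 4.00, 7.04 and 8.32 CPM in the 4 TBI libraries. Its slope was 0.18 ± 0.16 (edgeR adjusted p = 0.447) and was not called. The receptor Ppara (ENSMUSG00000022383, GRCm38 chromosome 15, 85734983 to 85802819, plus strand), which drives fatty acid oxidation genes in liver and muscle, had 1.62, 1.95 and 3.02 CPM in the 3 controls and 1.56, 2.25, 2.17 and 7.11 CPM in the 4 TBI libraries. TBI 4 stood apart from the other TBI libraries, and the slope was 0.81 ± 0.22 (edgeR adjusted p = 0.0245). Ppard (ENSMUSG00000002250, GRCm38 chromosome 17, 28232700 to 28301474, plus strand), the PPAR form expressed in most tissues, had 20.7, 18.3 and 25.7 CPM in the 3 controls and 23.3, 26.0, 26.7 and 31.0 CPM in the 4 TBI libraries. Its TBI estimate of 0.31 ± 0.15 (unadjusted p = 0.0778) did not pass, and its slope was 0.17 ± 0.08 (edgeR adjusted p = 0.14).

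**Figure D4:**
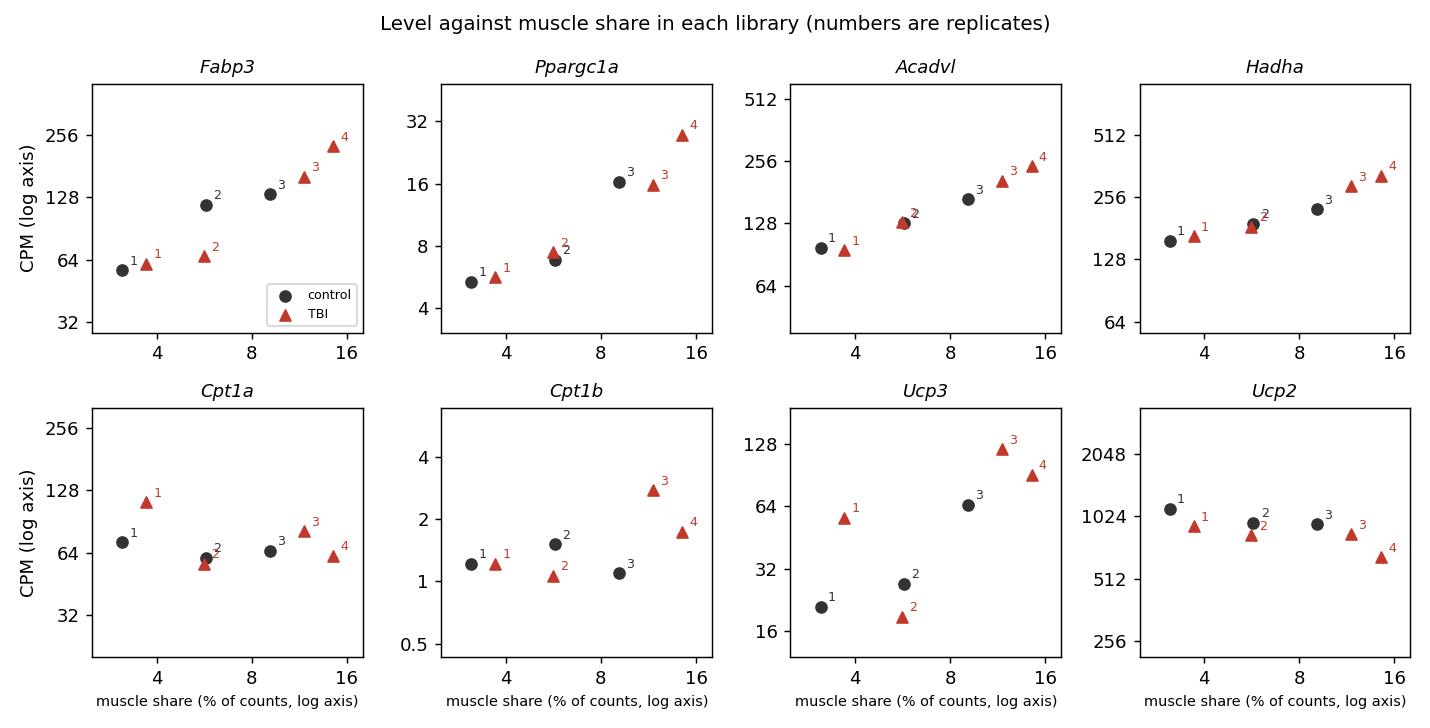
Level in CPM of Fabp3, Ppargc1a, Acadvl, Hadha, Cpt1a, Cpt1b, Ucp3 and Ucp2 (vertical log axis) against muscle share in percent of counts (horizontal log axis), 1 point per library, labelled by replicate number. Fabp3, Ppargc1a, Acadvl and Hadha climb with muscle share in both groups, Cpt1a is highest in TBI 1, and Ucp2 is lowest in TBI 4.

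The uncoupling proteins of the inner mitochondrial membrane were at opposite ends of the TBI estimates. Ucp3 (ENSMUSG00000032942, GRCm38 chromosome 7, 100472990 to 100486432, plus strand), the form of skeletal muscle, had 20.96, 27.1 and 65.3 CPM in the 3 controls and 56.5, 18.8, 121 and 91.2 CPM in the 4 TBI libraries. The means were 37.8 ± 24.0 CPM for the 3 controls (mean ± SD) and 72.0 ± 44.3 CPM for the 4 TBI libraries (mean ± SD), and TBI 2 lay below every control. Its TBI estimate of 0.93 ± 0.60 did not pass (edgeR adjusted p = 0.763), and its slope was 0.79 ± 0.25 (adjusted p = 0.0418, and 0.124 in DESeq2). At equal muscle share the estimate was 0.57 ± 0.40, which without TBI 1 was −0.30. Ucp2 (ENSMUSG00000033685, GRCm38 chromosome 7, 100493337 to 100502020, plus strand), the form abundant in immune and blood-forming cells, had 1117, 953 and 937 CPM in the 3 controls and 920.4, 832, 843 and 652 CPM in the 4 TBI libraries. The means were 1003 ± 99.7 CPM for the 3 controls (mean ± SD) and 812 ± 114 CPM for the 4 TBI libraries (mean ± SD), and every TBI library lay below every control. This was the sole member whose groups did not overlap; the difference of −0.30 ± 0.17 did not pass (unadjusted p = 0.115, edgeR), nor did its slope of −0.18 ± 0.07 (edgeR adjusted p = 0.0834). The erythroid list was also lower in every TBI library (2.07% to 3.60% of counts) than in every control (4.49% to 5.62%), and the osteoblast list took 0.944% to 1.62% after TBI against 1.61% to 2.89%. The neutrophil list, in contrast, took 0.229% to 1.45% after TBI and 0.359% to 0.587% in controls, the macrophage list 0.0256% to 0.0600% and 0.0326% to 0.0463%, and the B cell list 0.00549% to 0.0209% and 0.0163% to 0.0287%. The part of these cells in the Ucp2 difference was not tested. Acot2, a mitochondrial acyl-CoA thioesterase with the near-identical copy Acot1, had a slope of 0.50 ± 0.19 (edgeR adjusted p = 0.086) and is uncertain.

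The groups were then compared at equal muscle share, by keeping that share in the model. Of the 34 members, 0 passed edgeR's quasi-likelihood test, beside 0.0% of all genes, 0 had an unadjusted p under 0.05 (16.1% of all genes did), and DESeq2 called 0. Estimates were above 0 in 24 of 34 (52.4% of all genes), with a median of 0.06, from −0.27 for Fabp3 to 0.57 for Ucp3. Leaving out TBI 3 and TBI 4 put 11 of 34 above 0, and the median was 0.003 without control 3. The nearest pair of libraries by muscle share gave a direct view without a test: control 2 (5.73%) and TBI 2 (5.65%). In that pair 14 of 34 members were higher in TBI 2, the median log2 difference was −0.04, and 26 of 34 (76.5%) lay within 0.25 of 0, a range that held 54.6% of all genes. The widest gap in it was that of Fabp3, which was 118.1 CPM in control 2 and 66.3 CPM in TBI 2. Ppard had the widest gap among the members higher in TBI 2, at 18.3 and 26.0 CPM.

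Members were set against each other as CPM per kb of exon, mean of the 7 libraries. Length here is all annotated exon bases of a gene, not those of 1 transcript. The order therefore depends on the annotation as well as on the level. By this measure Fabp3 (142.6) and Ucp2 (127.9) came first, followed by Acadl (76.2), Acadvl (56.6), Acaa2 (56.2) and Etfa (54.7). Ucp2 had 6989 such bases and Fabp3 had 823. Without division by length, Ucp2 was higher than Fabp3 in every library (652 to 1117 CPM against 56.8 to 226 CPM). Ppargc1a (1.84), Ppargc1b (1.38), Ppara (0.733) and Cpt1b (0.449) came last. The place of Cpt1b is uncertain, because 2744 of its 3372 exon bases are shared with Gm44502 and how their reads were counted is not known. Along this order, the lowest library of Slc25a20 (mean 6.57), at 4.62, lay above the highest library of the next gene, Acsl3 (mean 3.48), at 4.52. In no other member did the lowest library lie above the highest library of the next gene. Which gene is next depends on the lengths used.

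Other genes of fatty acid and mitochondrial metabolism were looked at in 7 further lists. Of their 114 tested genes, 0 passed the test of TBI against control by edgeR or by DESeq2. An unadjusted p under 0.05 in edgeR was found for 6 of them, beside 7.36% of all genes, and the lists' median differences were 0.16 to 0.48. The called slopes below stand beside 14.0% of all genes that rose with muscle share and 9.74% that fell. Among 21 other genes of mitochondrial beta-oxidation and branched-chain acyl-CoA breakdown, 17 rose with muscle share and 0 fell, with a median slope of 0.41, near the 0.43 of the members; Acadsb and Hibch had the smallest p for TBI, at 0.79 ± 0.38 and 0.34 ± 0.17. Of 17 genes of the tricarboxylic acid cycle, which burns the acetyl-CoA made by beta-oxidation, 16 rose with muscle share and 0 fell, at a median of 0.56. In that list Dld (0.41 ± 0.23) and Sdha (0.51 ± 0.33) had the smallest p for TBI. Among other genes of uptake and activation 5 of 14 rose (median slope 0.23), and Fabp5 (0.39 ± 0.14) and Dbi (0.38 ± 0.19) had the smallest p for TBI. Of 18 peroxisomal genes tested, 7 rose, at a median slope of 0.19, and Scp2 (0.50 ± 0.16) and Pex7 (0.43 ± 0.13) led the list for TBI without passing. Fatty acid synthesis, which opposes oxidation through malonyl-CoA, had 4 of 15 genes that rose with muscle share (Acacb, Mlxipl, Me1 and Thrsp) and 1 that fell (Fads2), which are named here after their values were seen, with TBI estimates of 0.62 ± 0.30 for Acaca and −0.30 ± 0.13 for Fads1. PPAR targets and lipid droplet genes had 5 of 12 that rose, and Plin2 (0.30 ± 0.16) and Plin4 (0.72 ± 0.46) had the smallest p for TBI. Partners of the PPAR and ERR receptors had 7 of 19 that rose at a median of 0.09, with Pparg at 0.36 ± 0.16 and Pprc1 at −0.28 ± 0.13 for TBI. Genes of slow, oxidative fibres had a median slope of 0.46 (6 of 8 rose), and their list took 0.224% to 0.440% of counts in controls and 0.246% to 0.533% after TBI. All of these genes except Mb also belong to the muscle fibre list that defines the share, so their slopes are not independent of it.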

How the data were processed

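Messenger RNA of crushed femurs (7 libraries) was sequenced with a stranded kit, per the labels' protocols. The authors deposited raw counts per Ensembl gene, and the submitters' processing notes name STAR, DESeq and GRCm38. The sources used here do not give how reads were counted, with what use of strand or of multi-mapped reads. The deposited table of log2-like normalized values was not used here. Symbols came from GENCODE M21 (49412 of 49671 identifiers matched, 99.5%). Counts were filtered with filterByExpr, scaled by TMM and fitted with edgeR 4.0.16 (quasi-likelihood, R 4.3.3) over 17144 genes in 3 models: group, group with log2 muscle share read as a slope, and the same read as group. Standard errors come from the estimate and its F statistic. Scripts were tested on simulated data. DESeq2 1.42.0, RLE scaling, no filter, a replicate block, Acta1 alone as muscle share, no group term and leaving out each library were alternatives. Genes named in full were fixed receptors, coactivators and CPT1 forms, up to 12 called members of smallest p, and in each role the members of smallest p and steepest slope; other lists name the 2 of smallest p. Members and lists were chosen with earlier results of these data known. Replicate libraries differed beyond counting noise (chi-square per degree of freedom at least 27.2).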

Additional observations from a re-analysis of the deposited data

Results flagged for a closer look

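Ppara in TBI 4, at 7.11 CPM, stood far above the other TBI libraries (1.56, 2.25 and 2.17 CPM in TBI 1 to 3): the gap to the nearest was 0.875 of the whole TBI range, above the critical value of Dixon's test for 4 samples. It was 1 of 34 members tested in this way, where chance gives about 1 in 20. TBI 4 was also the library of highest muscle share. Without TBI 4, the difference of Ppara between TBI and control was −0.14 on the log2 scale.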

How the results depend on the processing

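No alternative called a member for TBI. DESeq2 called 103 genes for TBI against 0 in edgeR. At equal muscle share, where edgeR called 0, no filter gave 948, DESeq2 709 and Acta1 alone 4, and leaving out 1 library gave 0 to 1020 (the most without TBI 3). The slope called 4075 genes, 1658 (without TBI 1) to 3948 with 1 library left out. Settings chosen after seeing the data were an added adipocyte share (396 genes for the slope, 1089 at equal muscle share) and both muscle-rich TBI libraries left out (1222 and 623). Members with a positive slope called were 23, and 11 without those libraries or 1 with adipocyte share; the 1 with a negative slope, Acsl5, was not called under either (0), nor with no group term (0), and the count ran from 0 to 2 with 1 library left out. Estimates above 0 for TBI went from 33 to 5 (median −0.15) and at equal muscle share from 24 to 11 without the muscle-rich libraries. The labels do not say whether the replicate numbers pair the libraries. Same-numbered deviations from the group means correlated at 0.63, −0.04 and 0.39, and controls 2 and 3 correlated best with TBI 3 (0.23) and TBI 4 (0.50). Such correlations cannot decide on pairing, because the libraries also differ in muscle share. With the replicate block, whose slope fit leaves 1 residual degree of freedom, 0 genes and 0 members had a called slope of either sign and 14 members lay above 0 at equal muscle share; signs turned for Fabp3 (−0.14), Acaa2 (−0.00256) and Ppara (−0.12) for TBI, for the slopes of Cpt1a (1.41), Ppara (−1.66), Ppard (−1.19), Ppargc1a (−0.39) and Ucp2 (0.032), and at equal muscle share for 14 members, among them Ucp3 (−0.26). Leaving out 1 library gave TBI ranges through 0 for Fabp3 (−0.092 to 0.56), Acsl5 (−0.0858 to 0.12), Acaa2 (−0.0618 to 0.30), Eci2 (−0.000397 to 0.14), Etfb (−0.0943 to 0.17), Ppara (−0.14 to 0.87) and Acot2 (−0.0814 to 0.61), slopes through 0 for Cpt1a (−0.27 to 0.037) and Acaa1a (−0.0610 to 0.018), and estimates through 0 at equal muscle share for 18 of 34 members, among them Cpt1a (−0.0263 to 0.50) and Ucp3 (−0.30 to 0.91). The cause of these shifts was not tested. Counts of 21 to 51 limit Cpt1b.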

Other observations

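In TBI 1, which had little muscle RNA (3.70% of counts), 3 genes tied to fatty acid use stood well above control 1, the library of nearest muscle share (3.11%); they were chosen after their values were seen. Cpt1a was 112 CPM in TBI 1 and 72.0 CPM in control 1, and Ucp3 was 56.5 and 20.96 CPM. Pdk4, which encodes the kinase that turns off pyruvate dehydrogenase when fatty acids are burned and is a PPAR target, was 90.3, 103 and 263 CPM in the 3 controls and 201, 69.5, 697 and 338 CPM in the 4 TBI libraries. TBI 3 and TBI 4 were its highest libraries, and its slope on muscle share was 0.93 ± 0.29 (edgeR adjusted p = 0.0423). The other TBI library of low muscle share, TBI 2, held the lowest Pdk4 and Ucp3 of all 7 libraries. No test was made of these picked values.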
